A study of Homo sapiens with 15 samples.

Results

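Promoter regions bound by the antibody BG4 just inside genes were described here, in K562, an established human line from a chronic myelogenous leukaemia that keeps erythroid features. A region was included when its middle lay 50 to 1000 bp downstream of the nearest protein-coding start site, read by the strand of the gene. Regions within 1000 bp of both start sites of a divergent gene pair, whose start sites lay 1000 bp or less apart, were left out. Of the 8955 high-confidence regions 8937 lay on chromosomes 1 to 22 and X, and 466 of these met the rule. They belonged to 455 of 19747 protein-coding genes (2.30%). The position of a region was thus set by the rule, while its sequence and strength were not used to choose it. Presence was limited beforehand, because the high-confidence list holds only bases covered by 3 or more lists. Peaks found in fewer lists were left out. Regions chosen by the mirrored rule, 50 to 1000 bp upstream of their nearest start site, numbered 3519 and served as the comparison. They came mostly from other promoters, so the comparison was not matched within promoters. A further 1827 regions lay within 50 bp of a start site and 830 at divergent pairs.

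The chromatin came from asynchronous, untreated K562 cells, cross-linked with formaldehyde and sonicated, and BG4 was the only antibody. There were 5 libraries, 1a and 1c from biological replicate 1 and 2a, 2b and 2c from biological replicate 2. The lists held between 8059 and 12495 peaks, and the number of reads behind them is unknown. Peak names inside list 2a bore the letter of 2c and the reverse. Libraries are named here by their sample labels, so the values of this pair may be interchanged. The 2 input libraries of K562 and the bisulfite libraries of HaCaT, a keratinocyte line (4 control and 4 entinostat), were not analysed here.

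A G-quadruplex (G4) is a stack of guanine tetrads that a single strand with several runs of G can fold into, and BG4 is an antibody fragment that binds the folded form. Human promoters are often rich in G and C and lie in CpG islands, stretches that keep their CpG dinucleotides and mostly lack methylation at active genes. Past the start site the coding strand, the one with the sequence of the RNA, commonly carries more G than C, a bias called G skew. When RNA polymerase transcribes such a stretch the RNA pairs with the template strand and can leave the G-rich coding strand single. The first exon ends there at a splice donor, and the polymerase often pauses shortly after the start.

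The motif searched was 4 runs of 3 or more G separated by loops of 1 to 7 bases, wholly inside the region and on either strand. The region of IMPA2, an inositol monophosphatase, had the highest rank of the regions found in all 5 libraries. Its 6 motifs are shown because all of them lie on the coding strand and all within the first intron, with their middles 185 to 420 bp downstream of the start site. The peak summits lay nearer the start site than these motifs, as given below. Sequences were read from GRCh37 (hg19) and are written 5′ to 3′ with runs of 3 or more G in capitals. The motifs occupy the plus strand of chromosome 18, the coding strand of this gene, from chr18:11981209-11981233 to chr18:11981446-11981466, and are given in that order.
IMPA2 motif at 185 bp: GGGGcgcagccGGGagcGGGaGGGG
IMPA2 motif at 258 bp: GGGtgcGGGGcGGGGccGGG
IMPA2 motif at 289 bp: GGGGcGGGGaagaGGGGGGaatGGG
IMPA2 motif at 366 bp: GGGagcaGGGagctGGGcGGGG
IMPA2 motif at 391 bp: GGGGcGGGGagctGGGctGGG
IMPA2 motif at 420 bp: GGGGcGGGGcggaGGGtGGGG

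The next stretches, all intronic and with the G runs on the coding strand, show how differently such runs can be arranged. In each, runs of 3 or more G or C are in capitals and the coding strand is written. The ZNF784 region (zinc finger protein, chr19:56135542-56135660, minus strand) is shown whole because its G skew was the highest among regions found in all 5 libraries. Its 119 bases held 13 G runs and 0 C runs. FSTL3 encodes a follistatin-like protein that binds activins, and its region (chr19:680940-681144, plus strand) had 18 G runs and 1 C run in 205 bases. From CFAP410, a cilium-associated protein gene, the stretch that spans its 6 motifs is shown (chr21:45758755-45758971, minus strand), with 27 G runs and 0 C runs. It is a tandem array: shifted by 35 bp, 81.3% of 182 compared bases matched.
ZNF784 region: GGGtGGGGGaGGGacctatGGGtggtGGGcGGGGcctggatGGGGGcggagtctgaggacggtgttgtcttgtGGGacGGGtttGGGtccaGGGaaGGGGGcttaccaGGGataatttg
FSTL3 region: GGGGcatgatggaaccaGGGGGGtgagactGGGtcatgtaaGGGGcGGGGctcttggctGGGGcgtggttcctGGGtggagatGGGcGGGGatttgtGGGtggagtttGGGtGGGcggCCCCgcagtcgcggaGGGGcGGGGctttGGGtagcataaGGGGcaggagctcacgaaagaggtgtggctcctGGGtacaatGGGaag
CFAP410 stretch: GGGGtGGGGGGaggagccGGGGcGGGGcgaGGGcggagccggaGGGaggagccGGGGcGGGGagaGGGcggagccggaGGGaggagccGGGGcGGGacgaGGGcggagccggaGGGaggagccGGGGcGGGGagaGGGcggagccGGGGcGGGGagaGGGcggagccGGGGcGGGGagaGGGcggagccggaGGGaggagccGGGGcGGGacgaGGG

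The opposite arrangement was also present. ELAVL3 encodes a neuronal RNA-binding protein, and the stretch spanning its 4 motifs (chr19:11590350-11590528, minus strand, intron 1) is written on the coding strand, where it appears as 19 C runs and 6 G runs. The 4 motifs therefore lie on the template strand, with middles 923 to 1078 bp downstream. ODAD1, a gene of the dynein arm docking complex of cilia, had the lowest G skew among regions found in all 5 libraries (−0.423), and its only motif (chr19:48824689-48824716, plus strand) is written on the template strand with G runs in capitals.
ELAVL3 stretch: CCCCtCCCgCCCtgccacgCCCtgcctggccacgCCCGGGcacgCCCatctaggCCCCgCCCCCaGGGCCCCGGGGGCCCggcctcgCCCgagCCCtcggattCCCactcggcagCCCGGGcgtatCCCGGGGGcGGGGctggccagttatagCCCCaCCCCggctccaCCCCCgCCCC
ODAD1 motif: GGGGcGGGGcttcGGGGccggcgaGGGG

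Where the regions lay was examined next. BG4 regions were sparser just inside genes than just upstream of them. Among the 3985 regions 50 to 1000 bp from a start site, 466 (11.7%, 95% Wilson interval 10.7 to 12.7) were downstream. With only the most upstream start site of each gene the share was 22.9%. In the single lists the downstream share of such peaks was 18.5% and 16.3% in lists 1a and 1c, and 13.3%, 13.1% and 16.9% in lists 2a, 2b and 2c. The biological replicates had 17.4% and 14.4%, with a mean of 15.9% ± 2.09 (SD, n = 2). The share was higher in every single list than in the high-confidence list, which holds the bases covered by 3 or more lists. All intervals here cover counting error only, and neighbouring regions were treated as independent.

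Per megabase of sequence at each distance there were 909 regions in the 100 bp just upstream of the start site and 166 in the 100 bp just downstream. From 100 to 199 bp downstream 54 regions remained, or 19.5 per Mb (95% interval 14.7 to 25.5). The density was higher farther in, with 75 regions (28.8 per Mb) from 200 to 299 bp and 90 regions (35.8 per Mb, 28.8 to 44) from 300 to 399 bp. It was 17.8 per Mb from 400 to 499 bp and 5.28 per Mb from 800 to 899 bp. These 2 bins, the lower at 100 to 199 bp and the higher at 300 to 399 bp, were picked with their counts known, so the values describe the profile and test nothing. In the single lists the peaks of the same 2 bins numbered 103 and 140 (1a), 82 and 96 (1c), 44 and 83 (2a), 57 and 101 (2b) and 116 and 140 (2c). The farther bin held more peaks in 5 of 5 libraries. The ratio of the 2 bins was 1.67, and it ran from 1.33 with only the most upstream start site of each gene to 1.85 without library 2c.

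**Figure D1:**
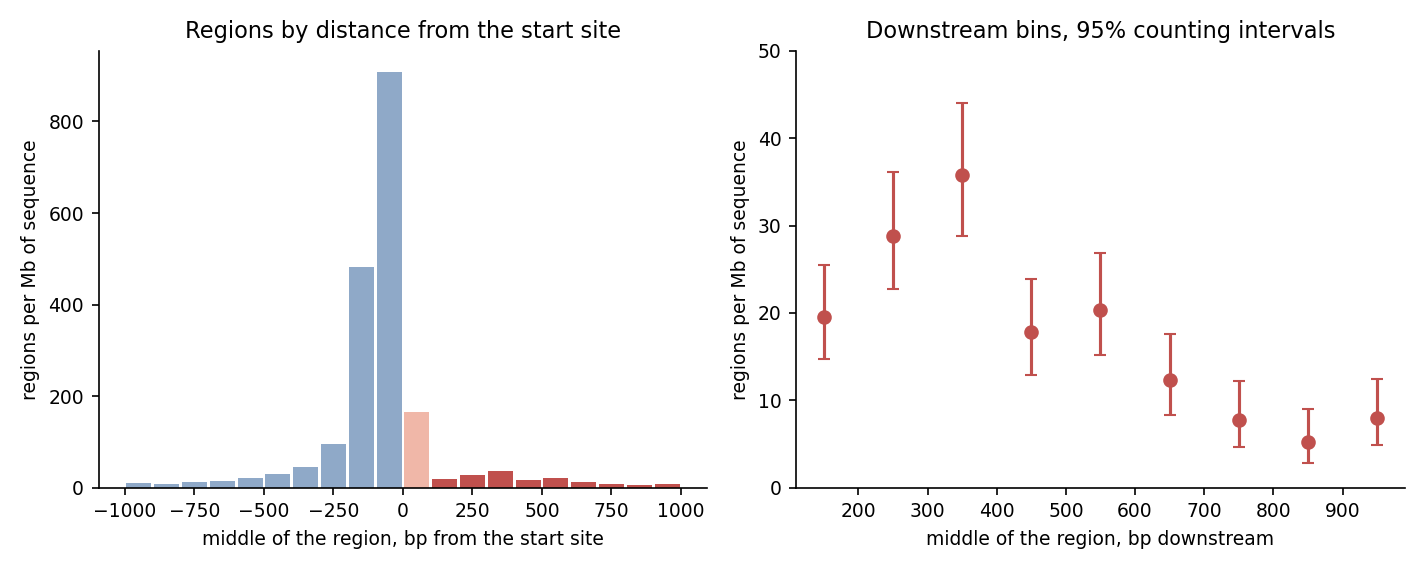
Regions per megabase of sequence against the distance of the region's middle from the nearest start site, in bins of 100 bp; the left panel shows both sides (blue upstream, pale red 0 to 99 bp, red farther downstream) and the right panel the bins from 100 bp with exact 95% counting intervals. After 19.5 per Mb at 100 to 199 bp downstream the density reached 35.8 per Mb at 300 to 399 bp and then fell.

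The median region lay 321 bp downstream (quartiles 176 and 528 bp). At the edges of the rule, 34 regions had their middle at 40 to 49 bp and 21 at 50 to 59 bp, while 20 lay at 901 to 1000 bp and 26 at 1001 to 1100 bp. A motif was present in 12 of the 34 and 7 of the 21 at the near edge, and in 10 of the 20 and 6 of the 26 at the far edge.

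Most of the regions were intronic. By the transcript whose start site was nearest, 292 of 466 (62.7%, 58.2 to 66.9) had their middle in the first intron, 122 (26.2%) in the 5′ UTR, 33 (7.08%) in coding sequence and 17 (3.65%) in a later intron. The middle of 2 regions lay beyond the end of that transcript. The first exons of these transcripts had a median length of 175 bp, and the middle lay past the end of the first exon in 319 of 463 multi-exon cases (68.9%), at a median of 155 bp past it over all 463. The region itself covered the end of the first exon in 92 (19.9%). A start site of a basic protein-coding transcript was inside the region in 86 (18.5%).

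Many of the regions shared their promoter with other BG4 signal. For 197 of the 466 (42.3%, 37.9 to 46.8) another high-confidence region had its middle between 1000 bp upstream and 49 bp downstream of the same start site. For 149 (32.0%, 27.9 to 36.3) no library listed a peak there. The middle lay within 300 bp upstream of another annotated start of any transcript type in 201 (43.1%), against 74.2% of the upstream regions. The difference was −31.1 percentage points (−35.7 to −26.3, Newcombe interval). Upstream was read here by the strand of that other start. It was of the same gene in 162, of another gene on the same strand in 15 and on the opposite strand in 62, with overlaps. These 201 may be upstream regions of that other start, and whether that start is used in K562 was not tested.

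In 11 genes there were 2 such regions each: LANCL2, GSE1, NR2C2, LUC7L2, MYO18A, TCAIM, FIS1, PTBP1, TACR2, ZNF428 and HNRNPL, named after their values were seen. PTBP1 and HNRNPL encode RNA-binding splicing regulators, and NR2C2 a nuclear receptor. Chromosome 19, the most gene-dense, held 79 of the 466. There the downstream share was 18.0%, against 10.9% on the other chromosomes (difference 7.13, 3.64 to 11.1). On chromosome X it was 2 of 90 (2.22%), a difference of −9.69 (−11.6 to −4.08). These 2 chromosomes were picked after their values were seen.

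The sequence of the regions differed from that of upstream regions in its strand bias, at positions that the rule had set. The difference in how often a motif was present had opposite signs at different distances. A G4 motif was found in 192 of 466 regions (41.2%, 36.8 to 45.7), against 34.7% of all 8937 regions and 1463 of 3519 upstream regions (41.6%). The difference from upstream was −0.373 percentage points (−5.05 to 4.43), an interval that held 0. At 100 to 500 bp on both sides it was −7.74 (−13.8 to −1.34), and with peaks of −log10 p of 10 or more in 3 or more libraries 6.60 (0.297 to 12.8), so direction and call depended on these choices. In bands chosen after the data were seen, a motif was present in 35.4% of downstream and 43.2% of upstream regions at 200 to below 500 bp (−7.84, −15.6 to 0.246). At 500 to 1000 bp it was present in 66 of 132 (50%) and 54 of 162 (33.3%), a difference of 16.7 (5.35 to 27.5). At 50 to below 200 bp, the band with 2913 of the 3519 upstream regions, the difference was −0.178 (−8.64 to 8.77). The value over all distances compared sets that differed in distance, so it is no average of the bands. The GC content had medians of 71.1% and 71.3%. Downstream regions were narrower, with a median of 196 against 231 bp. Within 100 bp of the middle, where the width is fixed, the difference was 0.623 (−4.0 to 5.40).

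Where a motif lay on 1 strand only, it was on the coding strand in 108 of 177 downstream regions (61.0%, 53.7 to 67.9) and in 679 of 1283 upstream regions (52.9%). The difference was 8.09 points (0.261 to 15.5), an interval that only just left out 0, and without library 2b it was 6.82 (−1.59 to 14.8). G skew was taken as the difference of G and C over their sum, on the coding strand. It was above 0 in 276 of 466 (59.2%) against 1824 of 3519 (51.8%), a difference of 7.39 (2.58 to 12.1). Regions whose middle lay within 300 bp upstream of another annotated start were then left out. The 2 differences were 7.30 and 6.37, and both intervals (−4.44 to 18.3 and −0.446 to 13.0) held 0. Both biases were larger where both sets were taken at 200 to 1000 bp from the start, a choice made after the data were seen. There the coding strand held the motif in 63.9% against 49.8%, a difference of 14.2 (3.30 to 24.4), and G exceeded C in 61.0% against 48.5%, a difference of 12.5 (5.88 to 18.9). By band, the coding-strand difference was −1.25 (−15.9 to 13.0) at 50 to below 200 bp, 17.7 (3.84 to 30.2) at 200 to below 500 bp and 6.56 (−11.6 to 24.4) at 500 to 1000 bp. The skew difference was 1.88 (−7.04 to 10.5), 15.6 (7.36 to 23.4) and 4.91 (−6.42 to 16.0) in the same bands. Only in the middle band did the intervals leave out 0, and whether the bands differ from each other was not tested.

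The bias was larger in first-intron than in exonic regions. In the first intron the motif was on the coding strand in 74 of 112 regions (66.1%), and in exons in 27 of 54 (50%), a difference of 16.1 (0.255 to 31.3). G exceeded C in 183 of 292 first-intron regions (62.7%) and in 82 of 155 exonic ones (52.9%), a difference of 9.77 (0.206 to 19.3). Motif presence itself did not differ beyond its interval, at 40.8% and 38.1% (2.69, −6.88 to 11.9). Exonic and intronic regions also differed in distance, with medians of 98 bp in the 5′ UTR and 390 bp in the first intron, so location and distance cannot be told apart here.

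The skew went along with the presence of a peak from 1000 bp upstream to 49 bp downstream of the start site. Among the 149 regions with no peak of any library in that window, G exceeded C in 73 (49%), against 203 of 317 (64.0%) of the others. The difference was −15.0 (−24.4 to −5.42). A strict CpG island (500 bp, GC share 0.55 or more, CpG 0.65 or more of the number its base content gives) was met by 83.2% of the 149 and 94.0% of the others (−10.8, −17.9 to −4.74). The motif share was 46.3% and 38.8%, a difference of 7.51 whose interval (−2.03 to 17.0) held 0.

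The sequence around the start sites was described in bins of 100 bp. Counted per 100 start sites, the 460 start sites of downstream regions had 19.6 coding-strand motifs at 200 to 299 bp downstream, against 16.6 at the 3410 start sites of upstream regions. Start sites in a strict CpG island with no peak of any library within 1000 bp, 5234 of them, had 11.8 there. On the template strand the 3 groups had 8.04, 9.74 and 7.62, with no such order. The mean G skew in that bin was 0.0640 at the start sites of downstream regions, 0.0648 at those of upstream regions and 0.0384 at those with no peak, so it did not follow the motif counts of the first 2 groups. In the 100 bp just upstream of the start the order of the motif counts was different: the start sites of downstream regions had 12 coding-strand motifs, those of upstream regions 20.4 and those with no peak 18.3. On the template strand of that bin the start sites with no peak had 17.9, close to their 18.3 on the coding strand. At 200 to 299 bp downstream they had 11.8 on the coding and 7.62 on the template strand. Their mean G skew was 0.0107 and 0.0384 in these 2 bins. The strand bias of the downstream regions therefore cannot be told apart from their position. These profiles include the bases of the regions themselves and are given as a description.

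**Figure D2:**
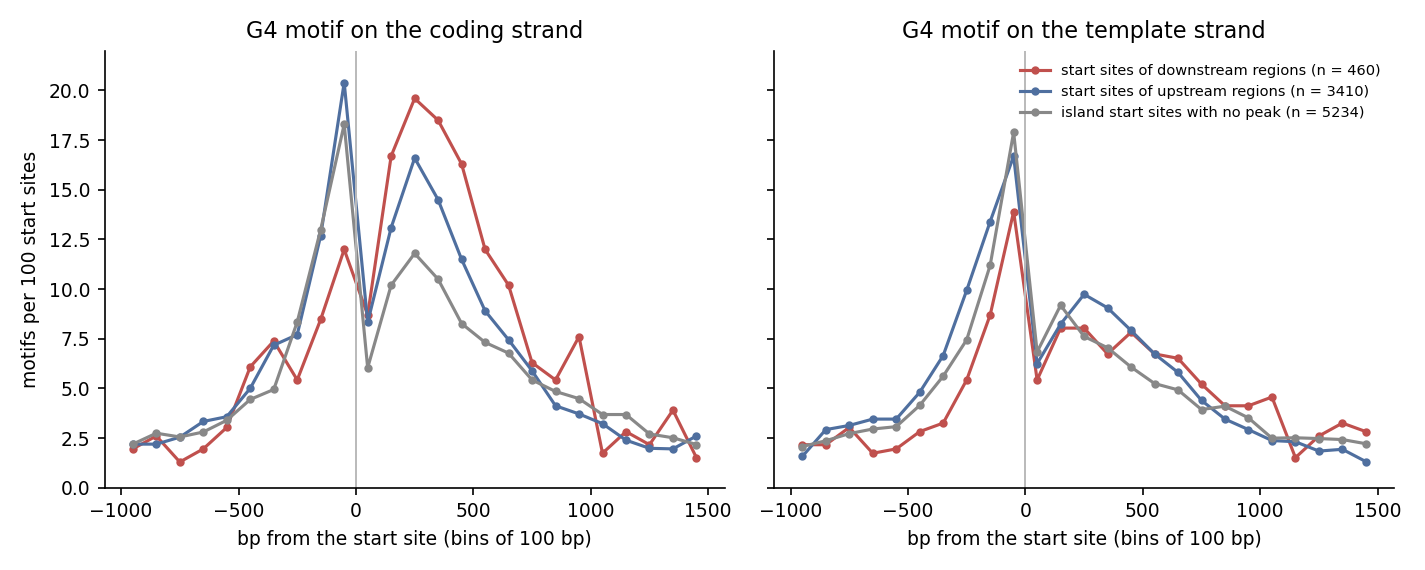
G4 motifs per 100 start sites in bins of 100 bp around the start site (left, motif on the coding strand; right, on the template strand) for start sites of downstream regions (red), of upstream regions (blue) and island start sites with no peak (grey). From 200 to 299 bp downstream the red line stands at 19.6 on the coding strand and 8.04 on the template strand.

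Taken over all distances, the 2 sides also differed in CpG islands and in short sequence words. A strict CpG island was met by 422 of 466 downstream regions (90.6%) and 3377 of 3519 upstream regions (96.0%), a difference of −5.41 (−8.46 to −2.97). At 200 to 1000 bp on both sides the shares were 89.7% and 91.4% (−1.68, −5.86 to 2.06), a smaller difference whose interval held 0. At 500 to 1000 bp 107 of 132 downstream regions (81.1%) and 133 of 162 upstream regions (82.1%) met an island (−1.04, −10.2 to 7.75).

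Words were searched in windows of 201 bp around the middle, on both strands unless stated, and overlaps between words were allowed. CCAAT, the core of the element bound by NF-Y, was present in 21.2% of downstream windows against 41.1% of upstream windows and 32.1% of all 8937, a difference of −19.8 (−23.7 to −15.6). It was the largest difference of the 10 words searched. GGGCGG, the GC box bound by Sp1 and its relatives, was in 74.5% against 82.5% (−8.06, −12.4 to −4.10) and in 74.6% of all. CCGGAA, an ETS core, was in 14.4% against 21.1% (−6.76, −9.97 to −3.05) and in 20.4% of all. The NRF1 word GCGCATGCG was rare on either side, at 1.72% against 3.55% and 3.38% of all. Each of these promoter words was thus less common downstream. The 2 sides were not matched by distance here, with medians of −108 bp upstream and 321 bp downstream. No word share was taken for upstream regions at matched distances, so position and side cannot be told apart.

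The splice donor words went the other way, but the rule had set the position. It placed the downstream middles inside genes, and 92 of 463 regions covered the end of the first exon, where a donor lies. The donor differences therefore describe position and are no separate result about BG4 signal. GGTGAG, searched on the coding strand only, was in 15.0% of downstream windows, 6.31% of upstream windows and 9.38% of all, a difference of 8.71 (5.64 to 12.3). GGTAAG was in 3.43% against 1.56% and 2.01% of all (1.87, 0.481 to 3.97). The word TGANTCA, bound by the AP-1 family, was in 4.72% of downstream and 2.47% of upstream windows (interval of the difference 0.567 to 4.62), and in 5.40% of all. The word bound by erythroid GATA factors, AGATAA, was in 3.00% and 1.65% (0.0590 to 3.37), and in 4.35% of all. Both intervals left out 0, and both downstream shares were below those over all regions. For AAGATGG (YY1, 3.13% of all) and TGACGTCA (CRE, 3.05% of all) the intervals of −0.137 (−1.44 to 1.85) and −1.73 (−2.87 to 0.0573) held 0. A word in a window is a description of its letters and not a bound site.

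**Figure D3:**
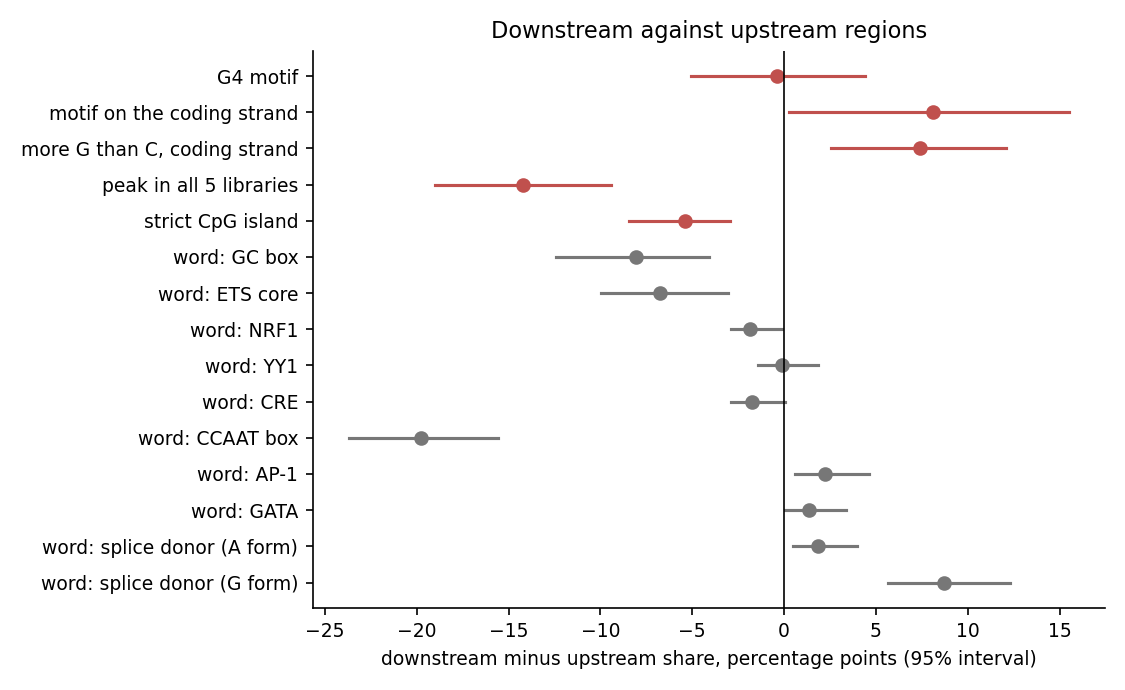
Share of downstream minus share of upstream regions, in percentage points, with 95% Newcombe intervals (red, features of the region; grey, words in windows of 201 bp; the 2 donor words are GGTGAG, G form, and GGTAAG, A form). Presence in all 5 libraries (−14.2) and the CCAAT box (−19.8) lie farthest to the left, while the coding-strand biases and the donor words lie to the right of 0.

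How reproducibly the regions were found was compared next. Over all distances downstream regions were weaker and less often shared by the libraries than upstream ones, and the size of this difference varied with distance. All 5 libraries had a peak at 232 of 466 (49.8%, 45.3 to 54.3), against 55.0% of all 8937 regions and 2252 of 3519 upstream regions (64.0%). The difference was −14.2 (−19.0 to −9.41). In 4 libraries a peak was present at 112 (24%) and in 3 at 122 (26.2%). Of the 466, 429 had a peak in 1a and 367 in 1c, while 352, 379 and 447 had one in 2a, 2b and 2c. The libraries of replicate 2 alone gave 11 (2.36%). That count was limited by the rule of 3 or more lists. None could rest on 1a and 1c alone, and those 11 needed each of 2a, 2b and 2c. Libraries 2c and 1a, with the longest lists, had a peak at most of the regions.

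The same was seen from the single lists. Of the downstream peaks in list 1a 55.0% overlapped the high-confidence list, against 84.4% of its upstream peaks. The shares were 63.2% and 90.6% in list 1c. Those of replicate 2 were 79.2% and 94.2% (2a), 75.4% and 90.6% (2b) and 62.0% and 85.7% (2c). Downstream peaks were shared less in 5 of 5 libraries.

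Fold enrichment is the authors' value for each peak, the signal at the summit over the local background, and is used here only within a list. The median fold of the peaks at downstream and upstream regions was 7.66 and 8.56 (1a), 7.10 and 7.62 (1c), 6.58 and 7.37 (2a), 6.31 and 6.84 (2b) and 6.48 and 6.95 (2c). Ranked within their own list, the downstream minus upstream median percentile was −8.41 and −7.73 in lists 1a and 1c, and −15.3, −10.5 and −8.59 in lists 2a, 2b and 2c. The mean difference over biological replicates was −9.77 ± 2.40 (SD, n = 2), from −8.07 and −11.5. It was lower in 5 of 5 libraries (exact two-sided sign-flip permutation p = 0.063, the smallest that 5 libraries allow). The libraries are technical repeats of 2 biological replicates, compared at the same regions. With all 5 differences of 1 sign this p takes that value whatever their sizes. It therefore describes only that the libraries had the same direction.

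**Figure D4:**
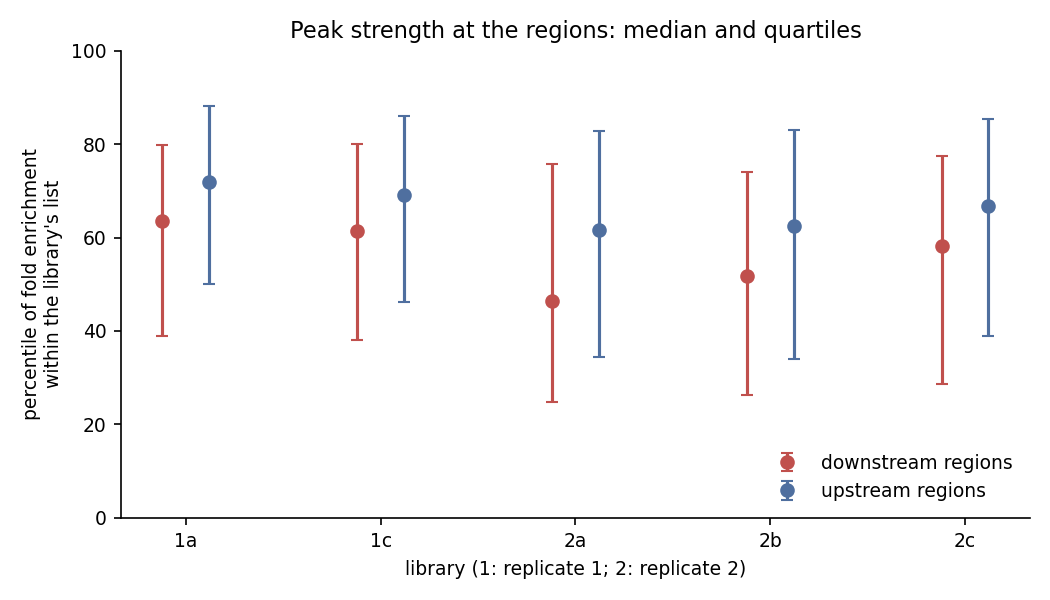
Percentile of fold enrichment within each library's own peak list, for peaks at downstream (red) and upstream (blue) regions; points are medians and bars quartiles. The downstream median lies below the upstream one in 5 of 5 libraries, between 46.4 and 63.5 against 61.7 to 72.0, with wide overlap of the quartiles.

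Presence in the libraries also differed with distance among the downstream regions themselves. Those at 50 to 199 bp had a peak in all 5 libraries in 75 of 125 (60.0%), and those at 200 to 1000 bp in 157 of 341 (46.0%), a difference of −14.0 (−23.6 to −3.72). Exonic regions were in all 5 in 58.1% and first-intron regions in 44.2% (−13.9, −23.2 to −4.15). The regions upstream of another annotated start were in all 5 in 58.7% and the others in 43.0% (15.7, 6.53 to 24.5), and they held a motif more often, at 47.3% against 36.6% (10.7, 1.63 to 19.5). At 200 to 1000 bp on both sides of the start the downstream share in all 5 was below the upstream one (46.0% against 59.4%, −13.4, −19.8 to −6.75).

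The same values were then taken by band of distance. The share in all 5 was 60.0% downstream and 65.0% upstream at 50 to below 200 bp (−4.95, −13.9 to 3.40), and 45.9% against 64.2% at 200 to below 500 bp (−18.3, −26.2 to −10.1). At 500 to 1000 bp it was 46.2% and 46.3% (−0.0842, −11.4 to 11.2). The median fold percentile, downstream minus upstream, averaged −2.28 and −19.9 over the 2 biological replicates in the nearer bands, each lower in 5 of 5 libraries. At 500 to 1000 bp it averaged 2.46. The medians there were 64.3 and 57.8 in list 1a, 65.4 and 61.7 in 1c, 48.0 and 50.3 in 2a, 50.8 and 49.5 in 2b, and 61.0 and 60.7 in 2c, so the downstream one was higher in 4 of 5 libraries (exact two-sided sign-flip permutation p = 0.312). These bands were chosen after the data were seen, and the differences between them were not tested.

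The strongest regions, ranked by their lowest percentile over the 5 libraries, belonged to genes of varied function. At IMPA2 (835 bp wide, 66 bp downstream) the fold was 15.9 and 16.9 in 1a and 1c and 15.2, 11.2 and 13.6 in 2a, 2b and 2c. Its lowest percentile within a list was 97.3. The region ran across the start site into the first intron, where the 6 motifs printed above lie. The peak summits lay at 146 and 116 bp in 1a and 1c and at −11, 65 and 116 bp in 2a, 2b and 2c. All were short of the nearest of these motifs, at 185 bp.

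DNAJB2, a co-chaperone of the HSP40 family, had folds of 16.8, 13.5, 12.8, 11.5 and 11.2 in 1a, 1c, 2a, 2b and 2c. Its region (middle 130 bp downstream, 5′ UTR) held 1 motif, on the template strand. That motif lay upstream of the start site (−51 bp), outside the transcript. CCDC9, which encodes a coiled-coil protein, had the highest fold of the downstream regions in list 1a, 19.9, and 14.2, 11.0, 11.7 and 13.5 in 1c, 2a, 2b and 2c. Its region was 1004 bp wide with the middle 438 bp downstream in intron 1, and its 4 motifs were all on the coding strand. The peak summits lay 512 to 739 bp downstream, so the signal was inside the gene in all 5 libraries.

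GUK1 encodes guanylate kinase and had folds of 12.8, 10.1, 11.7, 11.9 and 12.7 in the same order. MROH6 had folds of 12.2, 9.76, 10.6, 10.2 and 10.7 and 4 motifs, all on the template strand, 371 bp downstream in intron 1. PELI3, an E3 ubiquitin ligase of the Pellino family, had 15.8, 12.3, 11.1, 8.98 and 10.7 at 71 bp downstream, with 1 motif on each strand. Strong peaks were thus also found where the motifs lay on the template strand.

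MAN2C1, a cytosolic alpha-mannosidase, had folds of 13.2, 12.3, 9.80, 11.5 and 9.28 and no motif of the searched form, at 544 bp downstream in a later intron. FER, a non-receptor tyrosine kinase, also had no motif, with 13.8, 11.0, 13.8, 10.9 and 8.58 at 939 bp downstream in intron 1. With loops of up to 12 bases each of the 2 regions had 1 motif. Over all 466 regions, 264 (56.7%) had a motif with such loops and 445 (95.5%) one with runs of only 2 G. SCAMP4, a secretory carrier membrane protein, and DHODH, which makes a pyrimidine precursor in mitochondria, completed the strongest 10. At SCAMP4 the folds were 10.6, 11.6, 14.0, 10.6 and 10.9, and at DHODH 13.8, 11.9, 9.38, 10.1 and 13.2. Both regions had their middle in the 5′ UTR and held 1 motif on the coding strand. The SCAMP4 motif lay 164 bp downstream in the 5′ UTR. The DHODH motif lay upstream of the start site (−43 bp), outside the transcript.

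**Figure D5:**
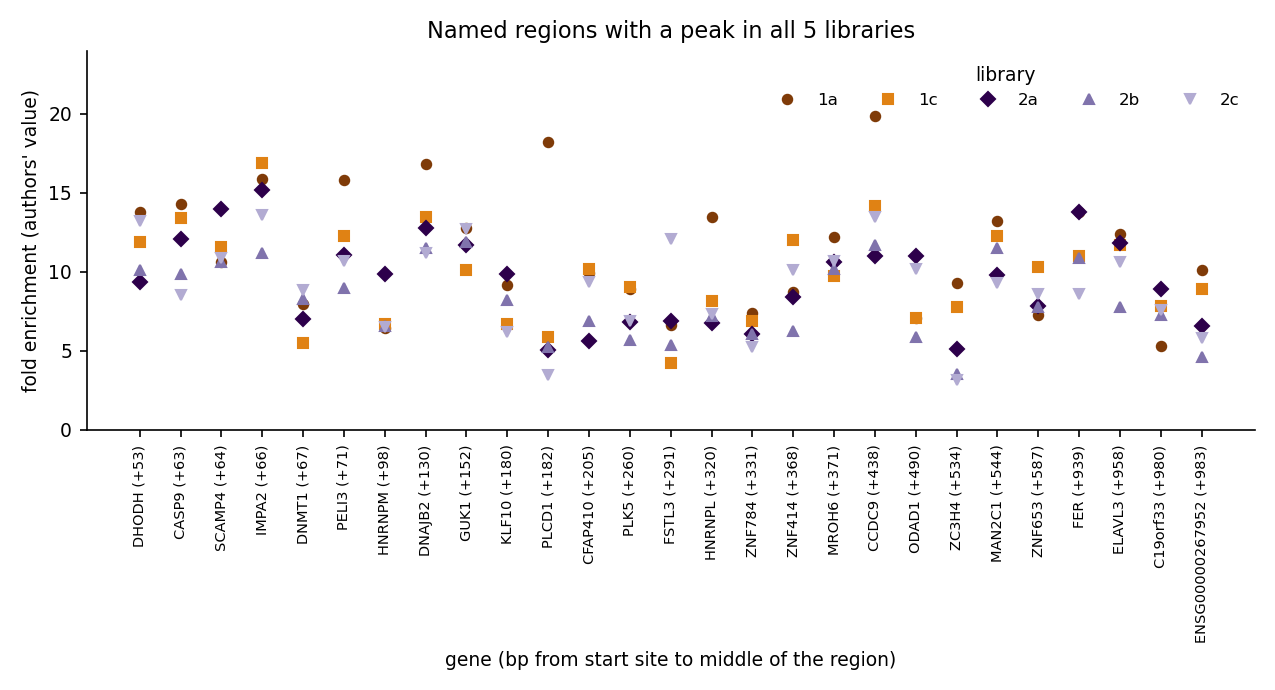
Fold enrichment, the authors' value, in each of the 5 libraries at the named regions with a peak in all 5, ordered by distance from the start site (in brackets, bp). IMPA2 and CCDC9 stand high in all 5 libraries, while PLCD1 has 18.2 in 1a and between 3.48 and 5.87 in the others.

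Some of the 5 regions with most motifs were also among the strongest, and most of them were wide. The widths were 835 bp (IMPA2), 1004 bp (CCDC9), 302 bp (MROH6), 645 bp (CFAP410) and 1098 bp (CASP9), against a median of 196 bp. A wider region can hold more motifs, so motif number and width cannot be told apart here. Of the 5 with most motifs, IMPA2, CCDC9 and MROH6 were in the strongest 10, and CFAP410 and CASP9 were not. The lowest percentile of CASP9 was 84.6, close to the 85.2 of DHODH, the last of the 10. CFAP410, whose tandem array is printed above, had folds of 9.96, 10.2, 5.61, 6.88 and 9.38. In 2a that was the 25.5th percentile of the list. CASP9, the initiator caspase of the mitochondrial death pathway, had 5 motifs on the coding strand, 2 of them upstream of the start site, and folds of 14.3, 13.4, 12.1, 9.88 and 8.53. Its region was the widest, at 1098 bp, and the summit was 309 to 394 bp downstream in 4 libraries but 338 bp upstream in 2b (−338).

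The farthest regions found in all 5 libraries lay near the end of the window. ELAVL3, at 958 bp, had folds of 12.4, 11.7, 11.8, 7.78 and 10.6 with 4 template-strand motifs (printed above) in 12.9 CpG per 100 bp. C19orf33, at 980 bp, had 5.33, 7.85, 8.95, 7.27 and 7.60, with 1 motif on the coding strand, and its middle lay beyond the end of its nearest transcript. A gene known only as ENSG00000267952, at 983 bp, had 10.1, 8.91, 6.59, 4.61 and 5.84 with no motif. Of these 3 regions only that of ELAVL3 met a strict CpG island.

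The extremes of G skew were taken among regions found in all 5 libraries. ZNF784 (skew 0.610, 331 bp downstream) had 2 motifs on the coding strand and folds of 7.43, 6.92, 6.09, 6.05 and 5.25. PLK5, of the polo-like kinase family (0.596, 260 bp), had 2 such motifs and folds of 8.95, 9.04, 6.85, 5.66 and 6.90. FSTL3 (0.522, 291 bp) had 1 and folds of 6.64, 4.26, 6.91, 5.39 and 12.1. The last value, in 2c, came from a peak whose summit lay 166 bp upstream of the start (−166), outside the region.

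Among regions found in all 5 libraries, the 3 of lowest skew had their only motif on the template strand. ODAD1 (−0.423, 490 bp) had folds of 7.09, 7.07, 11.0, 5.86 and 10.2. ZC3H4, a zinc finger protein with a part in terminating transcription (−0.402, 534 bp), had 9.30, 7.75, 5.15, 3.52 and 3.17, and stood at the 1.60th and 1.12th percentile in 2b and 2c. PLCD1, a phospholipase C (−0.395, 182 bp), had 18.2, 5.87, 5.05, 5.22 and 3.48, and the 1a peak had its summit 378 bp upstream of the start (−378). Such peaks with a summit outside the region made up 179 of 1974 (9.07%) and touched 119 regions. With those left out the median percentile was still lower downstream in 5 of 5 libraries, with differences of −7.71, −7.56, −15.6, −10.9 and −7.28.

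Gene groups were described by how many members had a downstream region, beside the 2.30% of all protein-coding genes. The lists were chosen with earlier results of these data known, and no list was tested. The factors of polymerase pausing and elongation had the highest share, 5 of 22 (22.7%). These were CCNT1 and CDK9, the subunits of the elongation kinase P-TEFb, MEPCE, which caps the 7SK RNA that holds P-TEFb inactive, SUPT4H1, a subunit of the pausing factor DSIF, and AFF1, a scaffold of the super elongation complex. Of all 22, 16 had a BG4 promoter region of any class (72.7%), against 30.2% of all genes, and CTR9 was among those without. Of their 5 downstream regions only that of SUPT4H1 had a peak in all 5 libraries. At CCNT1 the region was 29 bp wide and the fold was 6.64 in 1a, 8.24 in 1c and 7.06 in 2b, with no peak in the other libraries. At MEPCE (563 bp, coding sequence) it was 8.62, 9.01, 5.67 and 6.60 in 1a, 2a, 2b and 2c. CDK9, AFF1 and SUPT4H1 fell outside the naming rule and were singled out after their values were seen. CDK9 (511 bp, intron 1) had 4.87, 4.58, 4.84 and 5.15 in 1a, 1c, 2a and 2c, and AFF1 had a peak in 3 libraries.

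The DNA methylation machinery had 2 of 16 (12.5%), and 1 of the 2 was found in all 5 libraries. DNMT1, the maintenance methyltransferase, had its region 67 bp downstream in the 5′ UTR, with no motif and folds of 7.97, 5.49, 7.0, 8.30 and 8.84. MBD3, a member of the methyl-CpG-binding domain family in the NuRD complex, had its region 366 bp downstream in intron 1. Its folds were 10.8, 9.15, 9.43 and 8.16 in 1a, 1c, 2a and 2c, with 15.6 CpG per 100 bp, against a median of 9.88 over the 466. DNMT3A had no promoter region.

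The SR and hnRNP splicing proteins had 3 of 36 (8.33%), HNRNPL, HNRNPM and HNRNPH1. At HNRNPL the higher ranked of its 2 regions lay 320 bp downstream in intron 1, with folds of 13.5, 8.13, 6.79, 7.19 and 7.33, and held the motif below on the coding strand (chr19:39342683-39342702, minus strand, G runs in capitals), shown for its single-base loops.
HNRNPL motif: GGGGGcGGGGaGGGGaGGGG

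HNRNPM, 98 bp downstream, had folds of 6.46, 6.72, 9.85, 6.58 and 6.5 and no motif. Among KLF, SP and EGR factors, which bind GC boxes, 2 of 31 (6.45%) had a region. KLF10 (180 bp, 5′ UTR) had 9.19, 6.72, 9.87, 8.20 and 6.18 and 2 motifs on each strand, and SP3 (146 bp) had 4.27, 5.04, 7.07 and 7.37 in 1a, 1c, 2a and 2c and none. EGR2 was among those without a promoter region.

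ZNF genes had 20 of 508 (3.94%). The highest ranked were ZNF653 (587 bp), with 7.29, 10.3, 7.86, 7.78 and 8.58, and ZNF414 (368 bp), with 8.72, 12, 8.39, 6.28 and 10.1, both in intron 1 and without a motif. Mitochondrial ribosomal protein genes had 3 of 78 (3.85%). MRPL48 (247 bp) had 7.09, 7.76 and 8.12 in 1a, 2b and 2c, and MRPS36 (414 bp) 5.31, 7.26, 9.67 and 10.3 in 1a, 2a, 2b and 2c. MRPL54, the other member, had a peak in 5 libraries.

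The remaining lists had 1 or no gene with a downstream region. EPOR, the erythropoietin receptor, was the only one of 25 erythroid and megakaryocytic genes (4.0%), 739 bp downstream in intron 1, with 6.98, 5.76 and 6.43 in 1a, 2b and 2c. SRC, a tyrosine kinase, was the only one of 15 textbook genes of promoter quadruplexes (6.67%), at 720 bp, with 8.08, 4.29 and 4.57 in the same libraries. Neither region held a motif. None of 87 cytosolic ribosomal protein genes had one. A promoter region of another class was present at 38 of them (43.7%), and one of any class at 30.2% of all genes. None was found either at 23 topoisomerases and R-loop or quadruplex helicases, 9 genes with textbook quadruplexes in the mRNA leader, 64 replication-dependent histone genes or 20 genes of other cell types. At the 2.30% of all genes, lists of these sizes would hold few or none. The empty lists are therefore no result about these gene groups.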

How the data were processed

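BG4 ChIP-seq peaks of 5 K562 libraries (2 biological replicates) and 1 high-confidence list were analysed. Peaks were called with MACS2 on hg19, per the submitters' processing notes. Its version, control and settings, and the aligner, are not given in the sources used here. In the deposited lists the score was 10 times the −log10 p, the fold enrichment was the ratio at the summit as the authors' caller gave it, and −log10 p and −log10 q were those at the summit. The deposited high-confidence list held positions alone, and bases covered by 3 or more lists gave the same 8955 regions. Read numbers were not given, so the depth is unknown.

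Start sites were those of basic protein-coding transcripts of GENCODE release 44 on GRCh37. A peak counted as present in a library where it overlapped a region by 1 base or more, and the strongest such peak gave the fold. Sequences were read from GRCh37 with pysam 0.24.0 in Python 3.11.15 (pandas 2.3.3, numpy 2.4.6). Shares have 95% Wilson intervals and differences of shares Newcombe intervals. A difference passed where its interval left out 0. A mean ± SD was taken over the 2 biological replicates after averaging their technical libraries. The classing, motif search and intervals were tested on simulated data.

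The genes named were the 10 regions in all 5 libraries whose lowest fold percentile over the lists was highest, the 5 with most motifs, the 3 farthest, the 3 of highest and 3 of lowest G skew among those in all 5 libraries, and, from each of 13 gene lists, up to 2 best ranked members and the first in alphabetical order without a promoter region. Some of the last are not given. The members and lists were chosen with earlier results of these data known. Other points, transcripts, windows, pairs, thresholds, overlaps, motifs and islands, and leaving out each library, were tried as alternatives.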

Additional observations from a re-analysis of the deposited data

How the results depend on the processing

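The lower share in all 5 libraries and the lower fold percentile kept their direction and their call, where one was made, under 15 alternatives each, and not in every distance band given last. The fold percentile ran from −4.79 with peaks of −log10 p of 10 or more in 3 or more libraries to −17.5 at 100 to 500 bp. The downstream share of 11.7% depended on the start sites and the window. It was 22.9% with only the most upstream start of each gene, 9.61% with the stronger peaks, and 10.6% to 11.4% when 1 library was left out. The motif difference of −0.373 was −7.74 (−13.8 to −1.34) at 100 to 500 bp and turned to 6.60 (0.297 to 12.8) with the stronger peaks, 1.09 with runs of 2 or more G and 0.623 within 100 bp of the middle. The cause was not tested. The coding-strand difference of 8.09 had an interval that held 0 with peak summits in place of middles (7.48) and with overlapping head-to-head pairs left out (7.82). With 1 library left out it ran from 6.82 without 2b, where the interval held 0, to 10.9 without 1a. It was 13.3 at 100 to 500 bp. The strict island difference lost its call with the most upstream start (−0.614) and at 100 to 500 bp (−1.55).

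Alternatives chosen after seeing the data kept regions whose middle was not within 300 bp upstream of another annotated start, or those at 200 to 1000 bp. The former gave a downstream share of 22.6%, a coding-strand difference of 7.30 and a skew difference of 6.37, both with intervals that held 0. The latter gave a downstream share of 36.0%, a motif difference of 0.462 and an island difference of −1.68. Bands of distance were also added. At 50 to below 200, 200 to below 500 and 500 to 1000 bp the downstream share was 4.11%, 32.0% and 44.9%. In the nearest band the coding-strand difference was −1.25, the skew difference 1.88 and the all-5 difference −4.95, all with intervals that held 0. In the middle band the island difference was 0.395. In the farthest band the motif difference was 16.7 and the fold percentile difference 2.46. There the intervals of the coding-strand (6.56), skew (4.91), all-5 (−0.0842) and island (−1.04) differences held 0. No paired analysis was possible because, of the groups whose labels share replicate numbers (K562 BG4 and input, and those of HaCaT), only K562 BG4 was analysed here. Downstream and upstream regions were compared within each library. With the depth unknown, a region absent from a list may lie just under its threshold. Peak lists hold no signal for such regions, and the number of gene copies in K562 was not measured.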
